A study of Mus musculus with 22 samples.

Results

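The 7 genes described here encode proteins used as markers of renal tubular injury: Havcr1, Lcn2, Slpi, Clu, Spp1, Cd44 and Sox4. They were taken by symbol from a table of read counts that lists 32858 genes, and all 7 were among the 17131 genes with enough reads to be tested. Kidney RNA came from male C57Bl6/J mice aged 8 to 10 weeks, with 1 library per mouse and 22 libraries in all. Vehicle (DMSO, cremophor and saline) was given to 5 mice. KW6002 (istradefylline), an antagonist of the adenosine receptor encoded by Adora2a, was given alone to 6 mice at 3 mg/kg daily from day -5 to day 7. Cisplatin, a platinum drug against cancer whose dose is limited by damage to the kidney, was injected intraperitoneally in 5 mice at 3 mg/kg on 6 days, and the remaining 6 mice received cisplatin plus KW6002. Kidneys were taken 72 hours after the last cisplatin injection. Whole kidney was extracted, so each level is an average over all its cell types.

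When epithelial cells of the nephron are damaged, the survivors lose parts of their transport program and switch on a set of genes that are low or silent at rest. Havcr1 encodes KIM-1, a receptor for phosphatidylserine with which injured proximal tubule cells take up dying neighbours and whose shed ectodomain is measured in urine. Lcn2 encodes NGAL, a secreted lipocalin that binds iron-carrying siderophores, and Slpi encodes a secreted inhibitor of serine proteases such as neutrophil elastase. Clu encodes the extracellular chaperone clusterin, and Spp1 encodes osteopontin, a secreted phosphoprotein that binds integrins and CD44. Cd44 encodes a cell surface receptor for hyaluronan, and Sox4 encodes a transcription factor of the SRY-box family.

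Libraries held 26471762 to 40510754 counted reads. Levels are given as CPM, counts scaled to a library total of 1e6 with TMM factors. Log2 fold changes, standard errors (SE) and adjusted p-values were estimated by edgeR with quasi-likelihood tests, all 22 libraries sharing 1 fit, with Benjamini-Hochberg adjustment across the 17131 genes tested. To be called, a gene needed both an adjusted p under 0.01 and a change of more than 1 on the log2 scale. Where no call is meant, an adjusted p under 0.05 was the threshold. By the numbers in their labels, 3 vehicle and 3 KW6002 mice belong to the 300s, and the remaining 16, with every mouse that received cisplatin, to the 500s. The labelled tissue showed its defining transcripts, since 10 proximal tubule markers (Slc34a1 and Lrp2 among them) summed to 17019 to 18361 CPM in vehicle kidneys.

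In the mm10 build with GENCODE M21 annotation, Havcr1 lies on the plus strand of chromosome 11 (46735080 to 46779578), Clu on the plus strand of chromosome 14 (65968483 to 65981547) and Spp1 on the plus strand of chromosome 5 (104435118 to 104441050). Lcn2 (32384633 to 32388252), Slpi (164354070 to 164389095) and Cd44 (102811141 to 102901665) are all on the minus strand of chromosome 2, and Sox4, on chromosome 13 (28948919 to 28953713), is on the minus strand as well. Gm26735 runs across Sox4 on the opposite strand, and its counts amounted to 0.534% to 0.658% of those of Sox4 in the 4 groups. For the other members with an overlapping gene the share was at most 0.355% (Mir7678 in Slpi), 0.261% (Gm42793 in Spp1) and 0.283% (Gm23731 in Cd44). The sources used here do not say whether counting used the strand.

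RefSeq start sites on GRCm38.p6, the assembly behind mm10, were found for all members but Clu, 9 starts in 6 genes. Since the members rose together after cisplatin, the 300 bases around each start (250 before and 50 after) were searched on both strands for 6 motifs of factors linked with injury or of the core promoter: AP-1 (TGANTCA), STAT (TTCNNNGAA), NF-kB, C/EBP (TTGCNNAA), a heat shock element (GAANNTTC) and a TATA box (TATAAA). The motif found most often was C/EBP, with 1 match each at a start of Havcr1, Lcn2, Slpi and Spp1, against 10.8% of all 32851 promoters of this length in the table. A match of letters is not evidence of binding, and genes with several starts had more chances of a match. The 30 bases that hold these matches are shown 5′ to 3′ on the strand of the gene to let their settings be compared, with the 8 letters of the match in capitals.
Havcr1, second start, chr11:46750454-46750483: tgtttttatggTTTAGCAAttaagaagcag
Lcn2, chr2:32387937-32387966: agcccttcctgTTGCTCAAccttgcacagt
Slpi, chr2:164356728-164356757: gaatttgtaTTGAGCAAtaggttagagttt
Spp1, second start, chr5:104436025-104436054: ctttttcttccTTGCAGAAagtactctcat

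The matches began at -46, -216, -241 and -156 from the start, and those of Havcr1 and Slpi read on the opposite strand. The Lcn2 match falls in an exon of another annotated Lcn2 transcript, and the other 3 matches lie outside exons of their gene. A TATAAA match was present at -211 of the first start of Spp1 (13.6% of promoters hold this motif), a heat shock element at -108 of the second Havcr1 start (7.86%) and an AP-1 match at 11 bases past the third Havcr1 start (7.81%). The promoters of Cd44 and Sox4 and the first Havcr1 start held 0 matches to the 6 motifs, and no member promoter held a STAT or NF-kB match (8.3% and 20.7% of all promoters). The 250 bases before the Slpi start and before the first Spp1 start follow, because among the 6 members with an entry Slpi kept the smallest and Spp1 the largest share of its rise in CPM with KW6002, with motif matches in capitals.
Slpi, minus strand, chr2:164356508-164356757: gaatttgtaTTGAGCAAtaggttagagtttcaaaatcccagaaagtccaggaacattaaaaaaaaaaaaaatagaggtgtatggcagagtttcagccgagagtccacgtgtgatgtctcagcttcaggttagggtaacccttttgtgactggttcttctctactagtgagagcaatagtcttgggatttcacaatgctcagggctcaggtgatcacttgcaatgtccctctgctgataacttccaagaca
Spp1, plus strand, chr5:104434861-104435110: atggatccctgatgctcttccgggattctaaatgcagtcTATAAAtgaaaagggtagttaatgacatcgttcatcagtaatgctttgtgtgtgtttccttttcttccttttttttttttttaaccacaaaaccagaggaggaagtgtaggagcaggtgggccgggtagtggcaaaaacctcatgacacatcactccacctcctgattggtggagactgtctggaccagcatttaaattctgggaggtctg

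Cisplatin raised all 7 transcripts, and in each the lowest cisplatin kidney was above the highest vehicle kidney. The size of the rise differed widely among them: Lcn2 and Havcr1 rose from under 5 CPM by 317-fold and 276-fold, Slpi and Spp1 rose by more than 10-fold, and Clu, Sox4 and Cd44 rose by 3.02-fold to 4.51-fold. All 7 were called higher, a call made for 12.1% of tested genes, and the groups did not overlap in the higher direction for 27.4% of tested genes. The median log2 fold change of the members was 3.91, beside -0.01 over all tested genes. In whole kidney, a rise can come from more RNA per cell or from more cells that hold the transcript, and the assay cannot tell these apart.

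**Figure D1:**
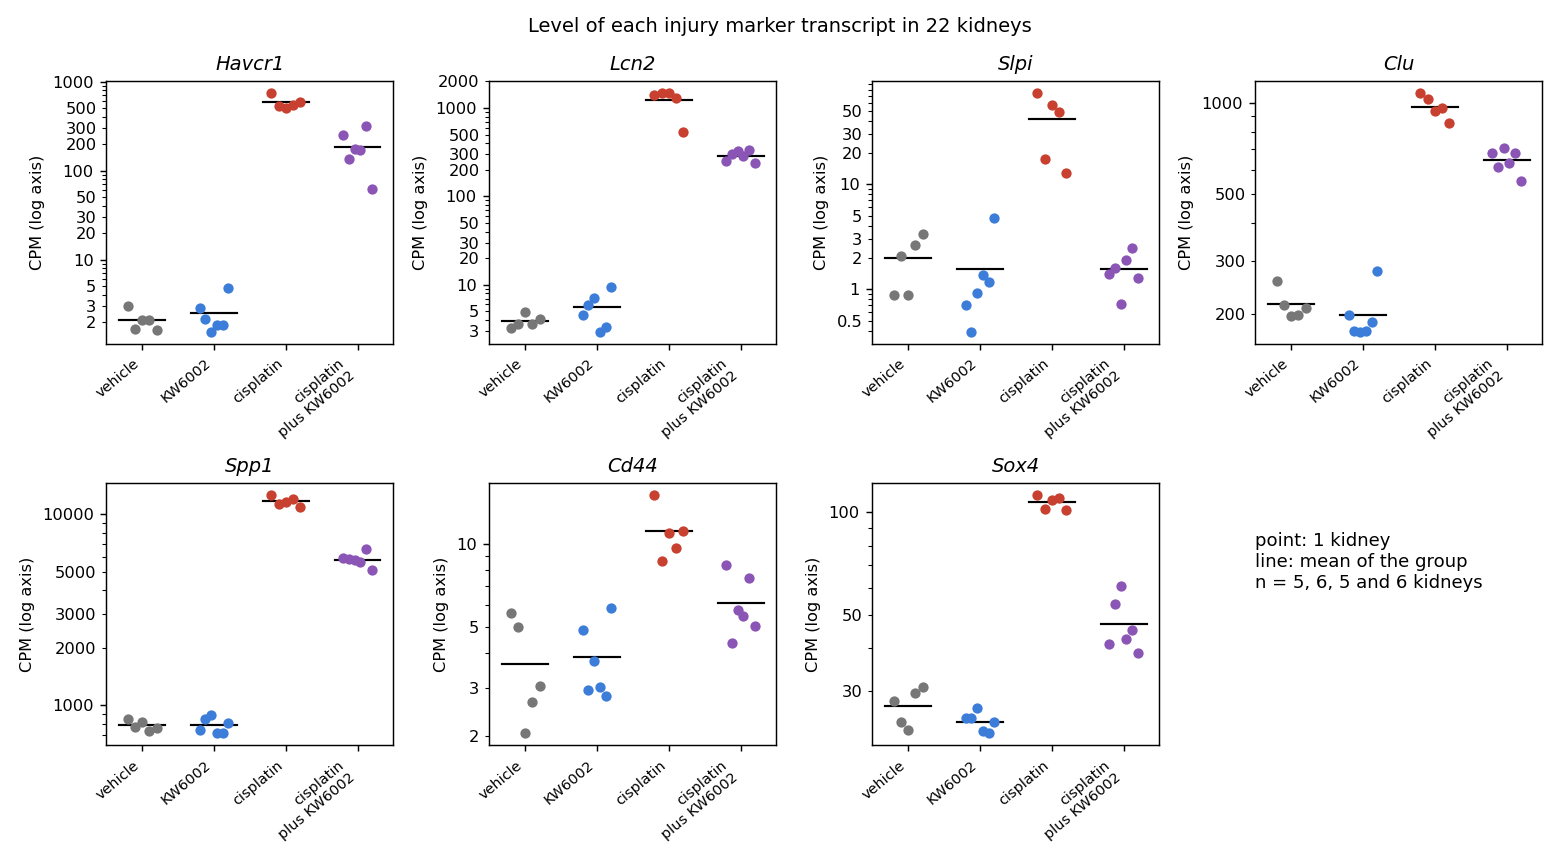
Level of each transcript in CPM on a log axis (vertical) in the 4 groups (horizontal), where a point is 1 kidney and a line is the group mean of 5 or 6 kidneys. For each gene the cisplatin points lie above all other points, and the co-treated points of Slpi alone lie within the range of the vehicle and KW6002 points.

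Lcn2 was measured at 3.24, 3.65, 4.90, 3.63 and 4.10 CPM in the 5 vehicle kidneys. In the 5 cisplatin kidneys it stood at 1390.0, 1479, 1481, 1309 and 539 CPM. The fifth cisplatin kidney was far below the other 4 and still above every vehicle kidney. Lcn2 had a log2 fold change of 8.31 (SE 0.33, adjusted p = 1.32e-15), the 7th highest of the 17131 tested genes.

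Havcr1 was near the level of Lcn2 in vehicle kidneys, at 2.98, 1.64, 2.12, 2.11 and 1.63 CPM. Cisplatin kidneys held 745, 530.2, 504, 547 and 586 CPM, a narrower range than that of Lcn2. Its log2 fold change was 8.11 (SE 0.40, adjusted p = 4.26e-14), the 14th highest. The 95% intervals of Havcr1 (7.28 to 8.94) and Lcn2 (7.63 to 8.99) overlapped.

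Slpi, the protease inhibitor, was at 0.874, 2.08, 0.873, 2.61 and 3.35 CPM in vehicle kidneys. Its cisplatin values were the least even of the members, at 74.2, 17.4, 57.3, 49.1 and 12.8 CPM. In 2 of the 5 cisplatin kidneys the rise was therefore much smaller, but the groups did not overlap. Slpi changed by a log2 fold change of 4.43 (SE 0.55, adjusted p = 1.80e-07), and the standard deviation was 62.5% of the cisplatin mean.

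Spp1 was by far the highest of the members in CPM at rest, at 842, 771, 816, 731 and 756 CPM in vehicle kidneys. With cisplatin it reached 12695, 11399.5, 11644, 12017 and 10894 CPM. The kidneys within each group were close together, with standard deviations of 5.75% and 5.77% of the mean. For Spp1 the log2 fold change was 3.91 (SE 0.09, adjusted p = 1.31e-19), or 15.0-fold, and its 95% interval (3.73 to 4.08) lay within that of Slpi.

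Clu, the chaperone, went from 258, 213, 197, 198 and 209 CPM in vehicle kidneys to 1076, 1024, 939, 959 and 853 CPM in cisplatin kidneys, a log2 fold change of 2.17 (SE 0.11, adjusted p = 1.16e-13). Sox4, the transcription factor, was at 28.2, 24.4, 23.0, 29.7 and 30.8 CPM in vehicle kidneys. Every cisplatin kidney held over 100 CPM of Sox4, at 113, 102, 109, 110.2 and 101 CPM, the tightest group of any member at 4.66% of the mean. The log2 fold change of Sox4 was 1.98 (SE 0.10, adjusted p = 8.41e-14).

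Cd44, the hyaluronan receptor, had the smallest rise. Vehicle kidneys held 5.60, 4.97, 2.05, 2.68 and 3.06 CPM, and cisplatin kidneys 15.0, 8.64, 10.9, 9.63 and 11.1 CPM. The 2 highest vehicle kidneys were at about the level of some co-treated kidneys but below all cisplatin kidneys. Its log2 fold change was 1.59 (SE 0.25, adjusted p = 6.89e-06), and its 95% interval (1.07 to 2.12) overlapped that of Sox4 (1.76 to 2.19). Among the 500s alone, with 2 vehicle kidneys, the log2 fold changes after cisplatin were 8.28 for Havcr1, 8.32 for Lcn2, 3.81 for Slpi, 2.25 for Clu, 3.97 for Spp1, 1.94 for Cd44 and 1.82 for Sox4, and all 7 were called there as well.

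Per kilobase of exon, the order of the levels in vehicle kidneys was Spp1 (475 CPM per kilobase), Clu (62.6), Sox4 (5.67), Slpi (1.66), Lcn2 (1.49), Havcr1 (0.907) and Cd44 (0.542). After cisplatin Spp1 remained at the top with 7118 CPM per kilobase. Lcn2 (473) and Havcr1 (252) came to stand beside Clu (282) on this scale, while Slpi (35.7), Sox4 (22.3) and Cd44 (1.63) followed. Spp1 alone accounted for 11729.7 of the 14682 CPM that the 7 transcripts summed to in the mean cisplatin kidney.

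With KW6002 in the absence of cisplatin, no difference from vehicle passed a test for any of the 7 transcripts. None of the members was called, for all 7 the groups overlapped, and none had an unadjusted p below 0.05 in edgeR or a call in DESeq2. Over all tested genes 0 (0%) were called in this comparison, 3 (0.0175%) had an adjusted p below 0.05 and 1930 (11.3%) an unadjusted p below 0.05, while the groups did not overlap for 0.391% (higher) and 0.998% (lower). The largest difference was that of Lcn2, at 2.94, 5.23 and 9.35 CPM (lowest, median and highest of 6) with KW6002, a log2 fold change of 0.50 (95% interval -0.08 to 1.08, adjusted p = 0.508). The interval was narrowest for Spp1, from -0.15 to 0.15 (adjusted p = 1.0), and widest for Slpi, from -1.63 to 0.83 (adjusted p = 0.836). For Havcr1 it ran from -0.59 to 1.09, for Clu from -0.33 to 0.10, for Cd44 from -0.44 to 0.60 and for Sox4 from -0.36 to 0.05.

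When KW6002 was given with cisplatin, all 7 transcripts were lower than with cisplatin alone, and the 6 co-treated kidneys did not overlap the 5 cisplatin kidneys for any of them. An adjusted p below 0.05 with a lower level was reached by all 7, against 27.2% of tested genes, and absence of overlap in that direction by all 7, against 18.5%. Slpi, Lcn2, Havcr1, Sox4 and Spp1 were called lower, where 5.66% of tested genes were. Clu and Cd44 passed the p-value but not the fold. Spp1 (log2 fold change -1.02, SE 0.07) stood just inside the threshold of 1. In a test against that threshold itself, 2 members (Slpi and Lcn2) were called.

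**Figure D2:**
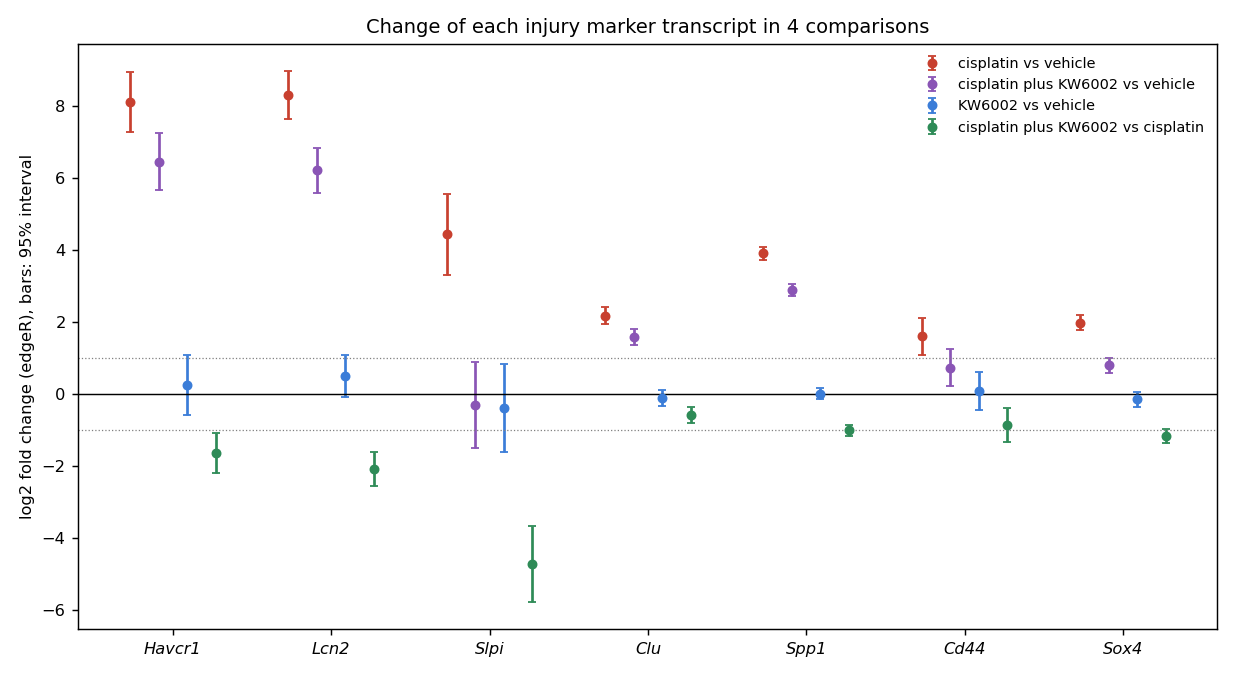
Log2 fold change from edgeR (vertical) of each transcript (horizontal) in 4 comparisons, where points are estimates over 5 or 6 kidneys a group, bars are 95% intervals and dotted lines mark the fold threshold of 1. The changes after cisplatin span 1.59 to 8.31, those with KW6002 alone have intervals that include 0, and those of co-treated against cisplatin kidneys run from -0.59 to -4.73.

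Slpi had the largest difference. Co-treated kidneys held 0.720, 1.5 and 2.48 CPM (lowest, median and highest of 6), against 12.8 to 74.2 CPM with cisplatin alone. This was 26.6-fold lower (log2 fold change -4.73, SE 0.51, adjusted p = 7.31e-08), and 5 genes of the 17131 had a more negative change. All co-treated values were below the highest vehicle value of 3.35 CPM.

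Lcn2 was at 237, 296 and 332 CPM (lowest, median and highest) in co-treated kidneys, a log2 fold change of -2.10 (SE 0.22, adjusted p = 6.04e-08). These 6 kidneys were closer together (13.3% of the mean) than the 5 cisplatin kidneys (32.1%). Havcr1 showed the opposite order of spread, at 61.7, 172 and 319.8 CPM and 48.6% of the mean in co-treated kidneys against 16.4% with cisplatin alone. Its log2 fold change was -1.65 (SE 0.27, adjusted p = 1.75e-05).

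Sox4 was at 38.8, 43.9 and 60.9 CPM (lowest, median and highest), a log2 fold change of -1.18 (SE 0.09, adjusted p = 6.14e-10). Spp1 was at 5119, 5804 and 6568 CPM in these kidneys, still far above the vehicle kidneys, the highest of which held 842 CPM (adjusted p against cisplatin = 1.49e-10). Cd44 was at 4.36, 5.59 and 8.37 CPM, a log2 fold change of -0.87 (SE 0.23, adjusted p = 0.00285), and its highest co-treated kidney fell just below the lowest cisplatin kidney at 8.64 CPM. Clu was at 550.2, 655 and 709 CPM, a log2 fold change of -0.59 (SE 0.10, adjusted p = 4.95e-05), the smallest difference of the 7.

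Set against the rise itself, the share of the cisplatin increase in CPM that remained with KW6002 differed among the members. It was -0.971% ± 1.48 (SD, n = 6) for Slpi, whose mean co-treated level was 1.57 CPM. The mean of Slpi was 1.96 CPM over all 5 vehicle kidneys and 2.98 CPM over the 2 vehicle kidneys of the 500s. The share was 23.1% ± 3.11 for Lcn2, 24.9% ± 10.7 for Sox4, 31.5% ± 15.5 for Havcr1 and 32.4% ± 20.8 for Cd44. The largest shares remained for Spp1 (45.9% ± 4.27) and Clu (56.8% ± 7.67). The SD covers the spread of the co-treated kidneys alone. Single kidneys ranged most widely for Cd44 (9.29% to 63.6%) and Havcr1 (10.3% to 54.7%), and for Lcn2 they stayed between 18.8% and 26.6%. On the log2 scale the same shares read 79.6% for Havcr1, 74.8% for Lcn2, 74.0% for Spp1, 72.8% for Clu, 45.6% for Cd44, 40% for Sox4 and -6.85% for Slpi, so the order of the members depends on the scale, with Slpi at the bottom on both.

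**Figure D3:**
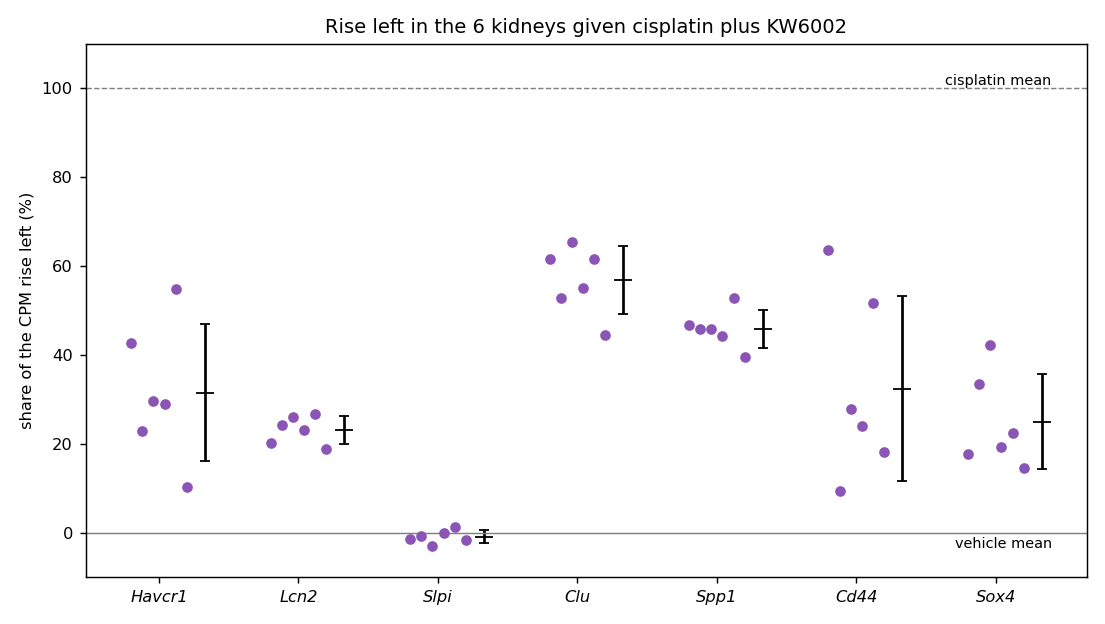
Share of the cisplatin rise in CPM that remained in each co-treated kidney (vertical, percent, where 0 is the vehicle mean and 100 the cisplatin mean) for each transcript (horizontal), with points for the 6 kidneys and bars for mean and SD. Slpi lies at 0, Clu has the highest mean at 56.8%, and Cd44 and Havcr1 have the widest spread.

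Compared with vehicle, co-treated kidneys still held more of most members, and this comparison shares its 5 vehicle kidneys with the comparison of cisplatin and vehicle. Havcr1 (log2 fold change 6.45, SE 0.38), Lcn2 (6.21, SE 0.30), Spp1 (2.89, SE 0.08) and Clu (1.58, SE 0.11) were called higher, 4 of 7 against 5.83% of tested genes. Sox4 was 1.73-fold higher (adjusted p = 3.42e-07), below the fold threshold. An adjusted p below 0.05 with a higher level was reached by 6 members, against 29.8% of tested genes. Without overlap in the higher direction were 5 members, Sox4 included, against 18.9% of tested genes. Cd44 was higher by a log2 fold change of 0.73 (SE 0.25, adjusted p = 0.0144), with overlapping kidneys. For Slpi the difference was -0.30 (95% interval -1.5 to 0.90, adjusted p = 0.671), an interval that leaves room for sizeable differences from vehicle in either direction.

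Within the 500s alone, Slpi was at 2.61 and 3.35 CPM in the 2 vehicle kidneys and at 0.873 to 2.08 CPM in the 3 of the 300s, which do not overlap. With KW6002 alone it was at 1.16 to 4.79 CPM in the 500s and at 0.392 to 0.913 CPM in the 300s, again without overlap. The co-treated kidneys, all of the 500s, had 0.720 to 2.48 CPM, below both vehicle kidneys of the 500s. The log2 fold change of Slpi against these vehicle kidneys was -0.91 (adjusted p = 0.297). Of the other members, Cd44 moved most in this subset, to a log2 fold change of 1.08 (adjusted p = 0.00684), which brought the number called to 5.

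The KW6002 effect itself was set side by side with and without cisplatin by the interaction term of the fit. All 7 members had a more negative KW6002 effect in the presence of cisplatin at an adjusted p below 0.05, which 19.9% of tested genes had, and 5 were called (4.33% of tested genes): Slpi (-4.33, SE 0.79), Lcn2 (-2.60, SE 0.36), Havcr1 (-1.90, SE 0.48), Sox4 (-1.03, SE 0.14) and Spp1 (-1.02, SE 0.10). Clu had -0.48 (adjusted p = 0.0127) and Cd44 -0.95 (adjusted p = 0.0292). Leaving out co-treated replicate 6, the kidney lowest in 5 of the 7 members, reduced the number called from 5 to 3. The adjusted p of Cd44 rose above 0.05 when any of 6 single libraries was left out (0.0519 to 0.0662).

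Whether the members fell by unequal amounts was tested within libraries, on the log2 ratio of the counts of 2 members, which does not depend on library scaling. Of the 21 pairs, 15 had a ratio that differed between the co-treated and the cisplatin kidneys (exact two-sided permutation test over 462 splits of 5 against 6 kidneys, adjusted over the 21 pairs). All 6 pairs with Slpi were among them, each at the smallest p that this design allows (0.00216, adjusted p = 0.00568). The ratio of Slpi to Clu changed most, by -3.94 on the log2 scale, and the ratio of Lcn2 to Slpi least of these 6, by 2.51.

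Lcn2 fell more than Clu (ratio -1.43, exact permutation adjusted p = 0.00568), than Cd44 (-1.14, 0.021), than Spp1 (-1.0, 0.0189) and than Sox4 (-0.82, 0.0325). Havcr1 fell more than Clu (-1.22), Cd44 (-0.94) and Spp1 (-0.79), with exact permutation adjusted p-values of 0.00826, 0.00826 and 0.0364. Clu fell less than Spp1 (0.42) and less than Sox4 (0.61). For the pairs of Havcr1 with Lcn2 (0.21, SDs of the ratio 0.72 and 0.68) and with Sox4 (-0.61, SDs 0.81 and 0.20), the difference in ratio did not pass the test (exact permutation adjusted p = 0.632 and 0.167). The other 4 pairs that did not pass were Clu with Cd44, Spp1 with Cd44, Spp1 with Sox4 and Cd44 with Sox4.

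Within a group, the same kidney was often highest or lowest for several members. This order was not tested as such, and none of the correlations given below passed adjustment. In the cisplatin group, replicate 1 was the highest kidney for 6 of the 7 transcripts and replicate 5 the lowest for 5. The exceptions were Lcn2, highest in replicate 3, and Havcr1 and Cd44, whose lowest values were in replicates 3 and 2. In the co-treated group, replicate 5 was highest for 4 members and replicate 6 lowest for 5, and in the KW6002 group replicate 6 was highest for 5. Averaged over the members, co-treated replicate 6 was 0.40 below and KW6002 replicate 6 was 0.73 above its group mean on the log2 CPM scale.

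**Figure D4:**
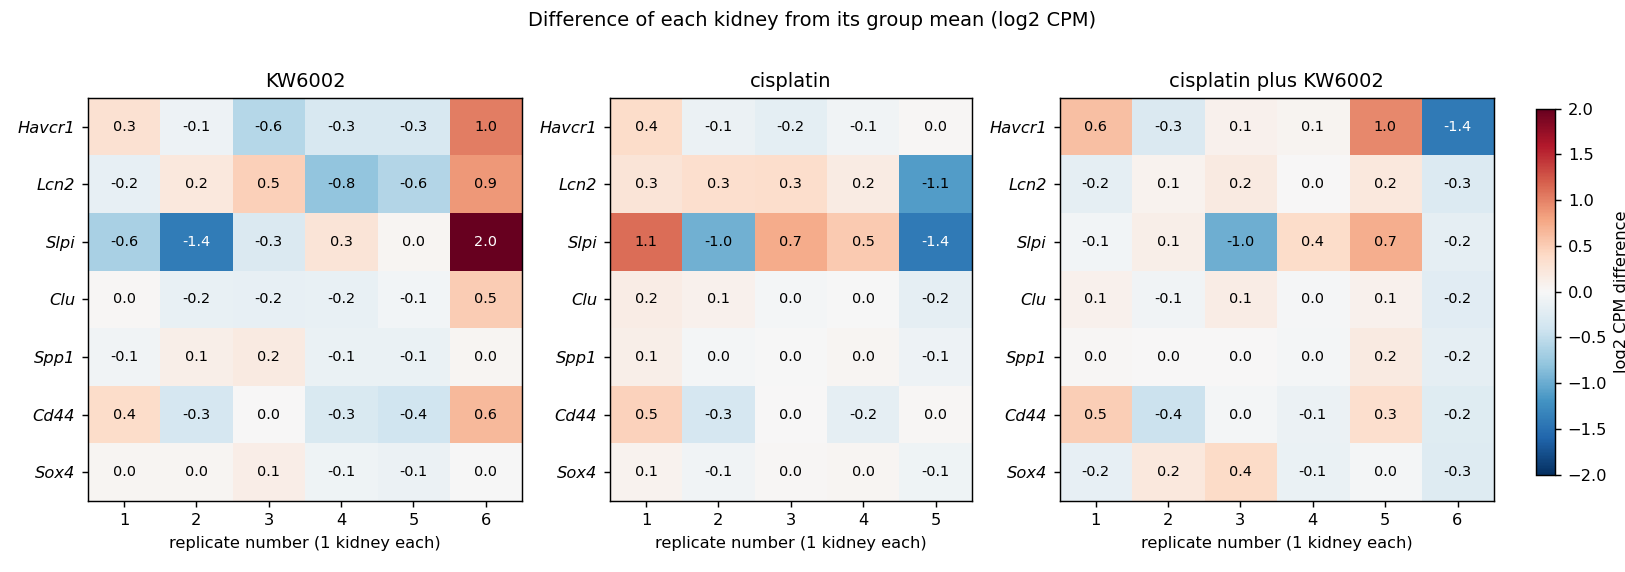
Difference of each kidney from its group mean in log2 CPM (colour and printed number) for the 7 transcripts (rows) and the kidneys of 3 groups (columns). KW6002 replicate 6 is above its group in Havcr1, Lcn2, Slpi, Clu and Cd44, cisplatin replicate 5 is low in Lcn2 and Slpi, and co-treated replicate 6 is low in Havcr1.

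Several of these kidneys, though not co-treated replicate 5 (7498 CPM), stood at the ends of their groups in the sum of 10 proximal tubule markers. That sum was lowest in cisplatin replicate 1 (2745 CPM) and highest in cisplatin replicate 5 (4228 CPM). It was highest of the co-treated kidneys in replicate 6 (10929 CPM, against 7346 to 9669 in the other 5) and lowest of the KW6002 kidneys in replicate 6 (16742 CPM, against 17812 to 18231). Co-treated replicate 6 also held 49.8 CPM of 4 adrenal cortex markers, against 1.47 to 2.67 CPM in the other 5, and the part of this in the results was not tested.

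Correlations of log2 CPM were computed in the 2 groups of 6 kidneys over all 21 pairs each. The median Pearson r was 0.511 in the co-treated group, with 18 of 21 positive, and 0.578 in the KW6002 group, with 16 positive. None of the 42 passed adjustment (exact permutation test over 720 orders, smallest adjusted p = 0.272). The strongest pair in the co-treated group, Havcr1 with Spp1, had r = 0.922 and Spearman's rho = 0.829 (exact permutation p = 0.0194 and 0.0583, adjusted p = 0.272 and 0.35), and r was 0.443 without the 2 kidneys farthest from the median of Havcr1. In the KW6002 group Havcr1 with Clu went from r = 0.937 to 0.14 in the same way, whereas Havcr1 with Cd44 in the co-treated group went from 0.74 to 0.999. These values rest on the 4 kidneys left, over a narrower range, and move in both directions.

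Markers of some other tubule segments and cell types moved with the same groups, and those of others moved in both directions. They were counted at an adjusted p below 0.05, where 34.6% of all tested genes were higher and 35.9% lower after cisplatin. For co-treated against cisplatin kidneys these shares were 28.6% and 27.2%. All 10 proximal tubule markers were lower after cisplatin, with a sum of 2745 to 4228 CPM against 17019 to 18361 CPM in vehicle kidneys. In co-treated kidneys the sum was 7346 to 10929 CPM, and 8 of the 10 were higher than with cisplatin alone. Slc34a1, the largest part of the vehicle sum, was at 7580 CPM with vehicle, 231 with cisplatin and 3060 in co-treated kidneys. Slc22a6 was at 1230, 579 and 640 CPM in these 3 groups. All 5 markers of the thick ascending limb and all 4 of the distal convoluted tubule were lower after cisplatin as well, and 4 and 3 of them were higher in co-treated than in cisplatin kidneys. Of 5 intercalated cell markers 3 were lower after cisplatin, and 3 were higher in co-treated than in cisplatin kidneys. After cisplatin, 2 of 5 collecting duct principal cell markers were higher and 1 lower. The same comparison had 2 of 5 podocyte markers higher and 3 lower, and 2 of 6 endothelium markers higher and 1 lower. Of 5 tested T cell markers 4 were lower and 1 higher after cisplatin, and of 4 B cell markers 3 were lower. The 7 fibroblast markers, 6 of them higher after cisplatin, summed to 218 to 449 CPM with vehicle, 898 to 1175 CPM with cisplatin and 407 to 733 CPM in co-treated kidneys. The 10 macrophage markers summed to 203 to 497, 314 to 420.1 and 165 to 272 CPM in the same order. The vehicle range overlapped both others, while the cisplatin and co-treated ranges did not overlap. Of these 10 markers, 3 were higher and 2 lower after cisplatin. Those lower were the defining genes Adgre1, at 6.59 against 11.8 CPM, and Csf1r, at 35.0 against 82.1 CPM. Those higher were Cd68 (59.1 against 18.5 CPM), Cd14 (39.6 against 5.36 CPM) and Itgam (7.34 against 1.59 CPM), and these 3 were lower again in co-treated kidneys, at 13.4, 13.2 and 3.21 CPM.

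Neutrophils hold Lcn2 and Slpi protein in their granules. At an adjusted p below 0.05, 34.6% of all tested genes were higher and 35.9% lower after cisplatin. In co-treated against cisplatin kidneys 28.6% were higher and 27.2% lower. Of 11 neutrophil markers 7 were tested, with 3 higher and 0 lower after cisplatin and 4 lower and 0 higher in co-treated than in cisplatin kidneys. Those higher after cisplatin were Retnlg (0.561 to 1.14 CPM), Cxcr2 (0.602 to 1.12 CPM) and Mmp8 (0.232 to 0.555 CPM), and all 3 were among the 4 that were lower in co-treated kidneys, with Csf3r the other. S100a8 (1.98 to 1.6 CPM), S100a9 (3.52 to 2.44 CPM) and Csf3r (3.33 to 2.82 CPM) were lower in the mean after cisplatin, without passing. The median log2 fold change of the 7 tested markers after cisplatin was 0.00182. Ly6g had at most 4 counts and Mpo at most 1 count in any library. The 11 markers summed to 4.8 to 18.6 CPM with vehicle, 6.45 to 13.4 CPM with cisplatin and 4.55 to 8.41 CPM in co-treated kidneys. The 5 fat markers summed to 35.8 to 428 CPM with vehicle, 134 to 245 CPM with cisplatin and 3.70 to 106 CPM in co-treated kidneys, without overlap between the last 2 groups. Of these 5 markers, 2 were lower and 0 higher after cisplatin, and 3 were lower in co-treated than in cisplatin kidneys. In the mean, Cidec was higher with cisplatin than with vehicle (105 against 49.3 CPM), whereas Adipoq, Plin1, Retn and Adrb3 were lower. The part of RNA from any of these tubule segments and cell types, neutrophils included, in the members' changes was not tested.

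**Figure D5:**
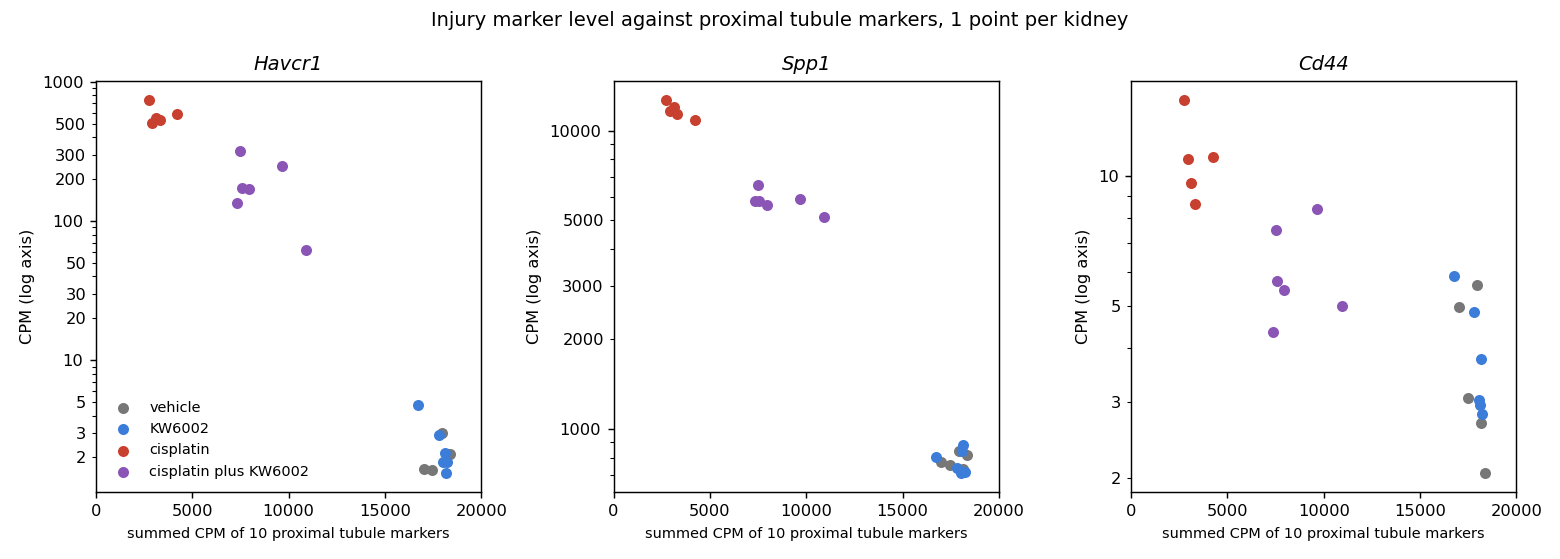
CPM of Havcr1, Spp1 and Cd44 on a log axis (vertical) against the summed CPM of 10 proximal tubule markers (horizontal), 1 point per kidney and colours for the 4 groups. Cisplatin kidneys lie at 2745 to 4228 CPM of the markers with the highest levels of each transcript, co-treated kidneys at 7346 to 10929 CPM, and the other 11 kidneys at 16742 CPM and above.

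A list of 43 genes for partners of the members' proteins (proteases that shed or cut them, receptors, integrins and hyaluronan enzymes) had 37 tested genes, of which 22 were higher and 10 lower after cisplatin at an adjusted p below 0.05. In this comparison 34.6% of all tested genes were higher and 35.9% lower at that threshold. Among those higher were Mmp7, a metalloproteinase that cleaves osteopontin (at most 2 counts in a vehicle library, 0.971 CPM with cisplatin, at least 9.32-fold higher against a floor of 3 counts per library), Lrp8, a receptor that binds clusterin (1.98 to 15.3 CPM), and Itgb3, a subunit of an osteopontin-binding integrin (3.04 to 15.5 CPM). Itgb3 was lower again in co-treated kidneys (4.49 CPM, log2 fold change -1.79 against cisplatin, adjusted p = 2.74e-08), whereas Lrp8 was at 13.9 CPM (adjusted p = 0.536). Among those lower were Lrp2, megalin, the endocytic receptor that takes up filtered NGAL (3635 to 575 CPM), Has3, a hyaluronan synthase (2.00 to 0.770 CPM), and Itga4 (6.09 to 2.89 CPM). Lrp2 was at 1476 CPM in co-treated kidneys, and Lrp2 is also in the proximal tubule list.

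Of 16 genes related to the members by family or cluster, 10 were tested. Of these, 5 were higher and 3 lower after cisplatin, where 34.6% and 35.9% of all tested genes were. Dspp, a gene of the same phosphoprotein cluster as Spp1, had 0 counts in every vehicle library and 23 to 52 counts with cisplatin, at least 10.8-fold above a floor of 3 counts per library. Sox11, which belongs with Sox4 to the SoxC family, rose from 0.436 to 2.62 CPM, and Wfdc2, which shares with Slpi the whey acidic protein domain, from 67.1 to 227 CPM. Sox12, the remaining SoxC gene, fell by 0.18 on the log2 scale (adjusted p = 0.0265). Wfdc15b fell from 119 to 16.0 CPM and Stab2, a scavenger receptor for hyaluronan, from 10.2 to 0.653 CPM.

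Of 34 other genes known from injured tubules, 33 were higher after cisplatin and 0 lower, where 34.6% and 35.9% of all tested genes were. The exception was Vim, at 54.0 and 55.5 CPM (log2 0.04, adjusted p = 0.88). The median log2 fold change of the 34 genes was 3.09. In co-treated against cisplatin kidneys 25 of the 34 were lower, where 27.2% of all tested genes were, with 0 higher and a median of -0.88. The genes with the largest rise were Krt20, a keratin (1.06 to 240.4 CPM, 51.2 in co-treated kidneys), Cdkn1a, the cell cycle inhibitor p21 (11.1 to 880.3, then 620.04 CPM), and Cxcl1, a chemokine (0.595 to 40.6, then 31.6 CPM). Cdkn1a was lower in co-treated kidneys by a log2 fold change of -0.51 (adjusted p = 0.0321), and for Cxcl1 the difference of -0.36 did not pass (adjusted p = 0.0526).

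Of 10 other transcripts whose proteins are measured in urine, 9 were tested, with 3 higher and 3 lower after cisplatin, shares close to the 34.6% and 35.9% of all tested genes. Timp2 rose from 69.7 to 112 CPM, B2m from 257 to 333 CPM and Cst3 from 201 to 233 CPM, all 3 of them below the fold threshold. Egf, made in the distal nephron, fell from 2537 to 75.8 CPM and was at 313 CPM in co-treated kidneys. Klk1 fell from 1225 to 253 CPM, and Umod, made in the thick ascending limb, from 4532 to 1575 CPM.

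Of 22 genes for factors that regulate such markers, 19 were higher after cisplatin and 0 lower, where 34.6% and 35.9% of all tested genes were. In co-treated against cisplatin kidneys 9 were lower and 2 higher, where 27.2% of all tested genes were lower and 28.6% higher. The largest rises were those of Fosl1 (0.0589 to 20.7 CPM) and Fos (1.42 to 26.6 CPM), subunits of AP-1, and of Socs3, a target and inhibitor of STAT3 (4.39 to 69.8 CPM). In co-treated kidneys Fosl1 was at 5.77 CPM (log2 fold change -1.84 against cisplatin, adjusted p = 5.87e-07), Socs3 at 38.6 CPM (-0.86, adjusted p = 0.00326) and Fos at 23.9 CPM (-0.15, adjusted p = 0.672).

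The genes whose pattern over the 22 kidneys was nearest to each member were found by the root mean square difference of log2 CPM relative to the vehicle mean. Havcr1 and Lcn2 were near each other (0.585), and both were nearest to Sprr2f, an epithelial cornified envelope gene (0.563 and 0.517). Genes near Slpi included Gm3336 (0.942) and 6030408B16Rik (0.995), both farther from it than the named neighbours of the other members were from theirs.

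For Clu the nearest were Aaas (0.195), 2200002D01Rik (0.21) and Pmaip1 (0.211), and for Spp1 they were Akr1b8 (0.296), Cpt1c (0.312) and Slc34a2 (0.318). For Sox4 they were Rab15 (0.186), Tgif1 (0.199) and Stx11 (0.2). Cd44 was nearest to Ctsk, a cathepsin (0.215), and to the collagen genes Col1a2 (0.253) and Col6a1 (0.279). For Havcr1 the third neighbour was Fosl1 (0.727), and for Lcn2 it was Gsta1 (0.692). Among the members themselves, Cd44 and Sox4 were the nearest pair (0.465) and Lcn2 and Cd44 the farthest (4.26).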

How the data were processed

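The authors extracted whole kidney RNA, prepared TruSeq stranded poly(A) libraries, sequenced them with single reads, aligned to mm10 with STAR, kept uniquely aligned reads and counted them per Ensembl gene with HTSeq 0.6.1p1 in union mode. The deposited values are raw counts, without normalization, and 66 unnamed empty columns of the table were not used. Symbols, positions and exon lengths were taken from GENCODE M21. Counts were filtered with filterByExpr (at least 10 counts at the median depth in at least 5 libraries), which kept 99.9% of all counts, and fitted with edgeR 4.0.16 (R 4.3.3) by TMM scaling, group means without covariates and quasi-likelihood F tests. Log2 CPM used a prior count of 2, and ratios within a library an added count of 0.5. Intervals are at 95%. DESeq2 1.42.0 and other scalings, filters and subsets were alternatives. The steps were tested on simulated data. Mice of a group were separate animals, and no 2 libraries agreed within sampling noise (chi-square per gene of at least 2.96). A count of 0 allows up to 3 counts of a library, for counting error only.

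The members, gene lists, tests and alternatives were chosen with earlier results of these data known. The genes named are the members, the 3 largest rises and falls after cisplatin in each list of related genes at an adjusted p below 0.05, the defining macrophage and neutrophil genes, and the 3 nearest patterns of each member, except for 1 item that is not reported here. Vim, the macrophage markers that moved, the neutrophil markers given with values, the single proximal tubule and fat markers, and the windows printed were chosen after their values were seen.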

Additional observations from a re-analysis of the deposited data

Results flagged for a closer look

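In 28 sets of values (7 members in 4 groups), the gap between the most extreme kidney and its neighbour exceeded Dixon's 95% critical value in 4, where chance flags about 1 in 20 sets. These were Lcn2 in cisplatin replicate 5 (539 CPM, below the other 4 at 1309 CPM and above), Slpi in KW6002 replicate 6 (4.79 CPM, with 1.36 CPM the next value), Clu in KW6002 replicate 6 (278 CPM, next 199 CPM) and Clu in vehicle replicate 1 (258 CPM, next 213 CPM). Without KW6002 replicate 6, the log2 fold change of Slpi between KW6002 and vehicle was -1.16, its lowest value over the alternatives, and its adjusted p stayed at or above 0.478 in all of them. Without cisplatin replicate 5, Lcn2 was called after cisplatin and lower in co-treated kidneys as before.

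The KW6002 effect differed with and without cisplatin for each member by the interaction term of the edgeR fit. The log2 differences were -1.90 for Havcr1 (adjusted p = 0.003), -2.60 for Lcn2 (5.22e-06), -4.33 for Slpi (0.000128), -0.477 for Clu (0.0127), -1.02 for Spp1 (9.19e-08), -0.945 for Cd44 (0.0292) and -1.03 for Sox4 (2.78e-06). Each was negative in all 34 alternative fits.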

How the results depend on the processing

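The number of members called stayed within 1.5 times of the reported value under DESeq2, other scalings, filters, equal depth, subsets and single libraries left out, with the exceptions given here. Testing against the fold threshold itself called 2 members lower in co-treated than in cisplatin kidneys in place of 5, and 2 in place of 5 for the interaction. In the 500s alone the interaction called 3. Leaving out 1 library gave 3 to 6 calls for the interaction, 4 to 5 for co-treated against cisplatin, 7 after cisplatin, 4 for co-treated against vehicle, 0 for KW6002 alone, and 11 to 14 of the 21 ratio pairs in place of 15. Replicate numbers did not generally pair the kidneys (7 of 31 same-number correlations above 0.1, range -0.175 to 0.405). Between vehicle and KW6002 kidneys of replicates 1 to 5 these correlations were 0.405, -0.153, 0.132, 0.155 and 0.194. In these 2 groups replicates 1 to 3 are the 300s, so replicate number cannot be told apart from label series there. Kidneys of unlike number were not compared. The replicate block left the calls at 7, 5, 0, 4 and 5, and pairing by number with exact sign flips gave 0 ratio pairs, where the smallest p is too large to pass (adjusted p = 0.0938).

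Direction changed only for KW6002 against vehicle, in values near 0: Spp1 was -0.00381 without a filter, -0.000922 at equal depth and -0.000708 in the 500s, where Clu was 0.0721, and leaving out 1 library gave -0.0379 to 0.0277 for Spp1, -0.0733 to 0.289 for Cd44 and -0.0119 to 0.413 for Havcr1. Scaling by library size moved the all-gene median of the log2 fold change to 0.204 after cisplatin and to 0.155 for co-treated against vehicle, and the share of calls that were higher after cisplatin from 50% to 62.6% (70.0% when scaled by Ppia). Scaled by Ppia, all 7 members were called lower in co-treated than in cisplatin kidneys. That scaling called 3948 genes in this comparison, 7.85% of them higher, against 1766 genes and 45.1% with TMM factors. Cd44 in co-treated against vehicle kidneys no longer passed when scaled by Ppia (0.436, adjusted p = 0.151). Depth limits Slpi, Havcr1 and Cd44 most, at 15 to 125, 41 to 125 and 61 to 173 counts in libraries without cisplatin.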
